A study of Homo sapiens with 6 samples.

Results

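Importins and exportins are the soluble receptors that carry proteins and RNAs through nuclear pores. The 10 receptor genes described here, XPO1, XPO5, XPO7, XPOT, CSE1L, KPNB1, KPNA2, IPO5, IPO7 and TNPO1, were taken by their symbols from a table of 58395 gene rows, and all 10 were among the 23806 genes with enough counts to test. RNA was sequenced from MDA-MB-231 cells, a triple-negative, mesenchymal-like line from a breast adenocarcinoma. Cells were transfected with the single CRP2-targeting siRNA siCRP2#a (siCRP2, n = 3 libraries) or with a non-targeting siRNA (siCTR, n = 3 libraries), which the study calls biological replicates, and were harvested 65 h later according to the labels. The study's methods give a slightly later time for RNA extraction after siRNA transfection. CRP2, encoded by CSRP2, is an actin-bundling LIM protein found in the cytoplasm and the nucleus, and the question of the comparison is how its depletion changes mRNA levels. Since 1 siRNA was used in 1 cell line, the loss of CRP2 and any other action of that siRNA cannot be told apart here.

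Most receptors of this group belong to the importin-β family. They bind or release cargo according to whether they hold the GTPase Ran in its GTP form, which is abundant in the nucleus. Importins drop their cargo when they meet Ran-GTP inside the nucleus, whereas exportins need Ran-GTP to hold their cargo on the way out. Exportin 1, the product of XPO1, is the receptor that leptomycin B blocks, and the study used that drug to ask how CRP2 leaves the nucleus.

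The libraries held 18346442 to 39115778 counts in siCRP2 and 17336798 to 25321830 in siCTR. No library was a duplicate of another, since any pair of a group differed well beyond counting error (9.35 to 35.2 in chi-square for each degree of freedom). CSRP2 was at 2.17, 1.78 and 1.89 CPM (counts per 1000000 counts of the library) in the siCRP2 libraries, against 13.7, 11.7 and 11.4 CPM in siCTR, and was lower by a log2 fold change of -2.66 (SE 0.178, edgeR adjusted p = 2.44e-08). Of the markers of this line, VIM, CD44, CAV1, ZEB1 and AXL were counted at 71.3 CPM or more in each library and SPARC at 1.41 to 7.50 CPM, and the 6 summed to 3344 to 4013 CPM in siCRP2 and 3769 to 4829 CPM in siCTR. ESR1 had 4 counts in all libraries together and PGR had 0, although the luminal and epithelial genes ERBB2, CDH1, EPCAM and GATA3 were present, and the 5 tested of these 6 summed to 156 to 165 CPM in siCRP2 and 151 to 156 CPM in siCTR. Of the 6 markers of other cell types, CD3E, ALB and MYH7 had 1, 3 and 0 counts. The 3 others (PTPRC, PECAM1 and VWF) summed to 5.08 to 8.17 CPM in siCRP2 and 9.99 to 22.2 CPM in siCTR. Of all these markers AXL and PECAM1 were called lower and CDH1 higher in siCRP2, and their part in the results below was not tested.

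Each group has 1 library with each of the codes 0412, 0611 and 1311 in its column name, and values are given in that order of codes throughout. CPM are counts divided by the total of the library times its TMM scaling factor. A gene is called higher or lower in siCRP2 at an adjusted p under 0.05 in edgeR's quasi-likelihood test over all 23806 genes.

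Of the 10 receptors, 2 were higher in CRP2-depleted cells (XPOT and IPO5) and 1 was lower (KPNB1). Among all genes tested 12.5% were called higher and 11.5% were called lower, so that the count of receptors that changed was near the background. Among the 2492 genes averaging 100 CPM or more, as all 10 receptors do, 26.6% were higher and 17.2% lower. None of the 10 receptors was called with a fold change of at least 1.5 in either direction, a size that 12.4% of all genes reached with a call. The groups did not overlap for 7 receptors, 5 of them higher in siCRP2 (XPO1, XPOT, CSE1L, IPO5 and IPO7) and 2 lower (XPO7 and KPNB1), against 37.4% of all genes and 58.3% of those averaging 100 CPM or more. The median log2 fold change was 0.12 over the 10 receptors, -0.02 over all genes tested and 0.08 over those averaging 100 CPM or more.

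**Figure D1:**
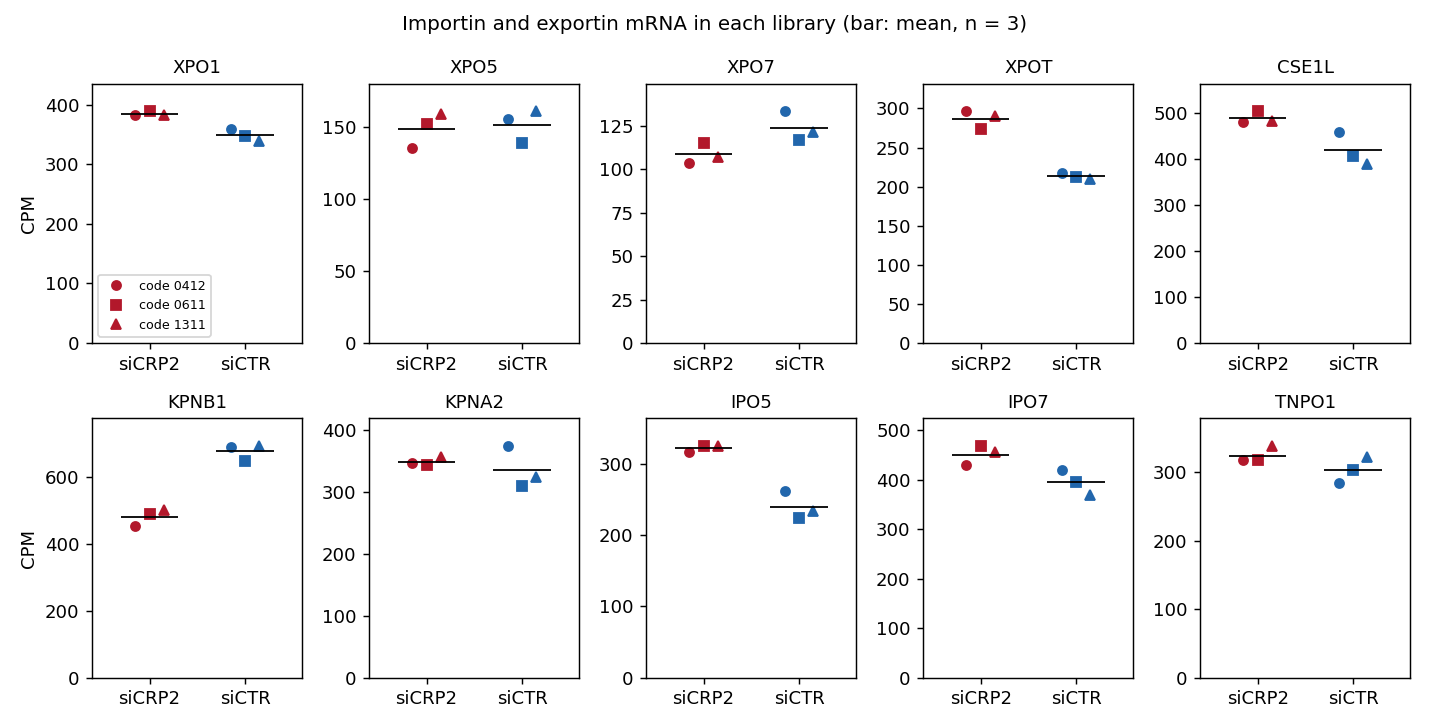
mRNA level (CPM, each axis starting at 0) of the 10 receptors in the 3 siCRP2 libraries (left, red) and the 3 siCTR libraries (right, blue); the marker shape gives the code of the library and the line the group mean. XPOT and IPO5 lie higher and KPNB1 lies lower in every siCRP2 library than in any siCTR library, and the groups overlap for XPO5, KPNA2 and TNPO1.

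KPNB1 encodes importin-β1, the receptor that carries proteins with a classical nuclear localization signal through an importin-α adaptor, and some other cargo directly. Its mRNA (ENSG00000108424; chromosome 17, 47649476 to 47685505, + strand, GRCh38) was at 454, 487 and 500 CPM in siCRP2, against 690, 647 and 691 CPM in siCTR. All 3 siCRP2 libraries lay well below the lowest siCTR library. The mean was 481 ± 23.8 CPM in siCRP2 and 676 ± 24.8 CPM in siCTR (SD, n = 3 each), a ratio of 0.711, and the log2 fold change was -0.49 (SE 0.0849, 95% interval -0.67 to -0.31, edgeR adjusted p = 0.00037). Within the codes the log2 ratio was -0.60, -0.41 and -0.47, so the siCRP2 library was lower than its siCTR partner for every code. It was called in 13 of 13 alternative analyses.

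KPNA2 encodes importin-α1, an adaptor that reads the classical localization signal and is itself carried in by importin-β1. Its mRNA (ENSG00000182481; chromosome 17, 68035636 to 68047364, + strand) was at 348, 343 and 357 CPM in siCRP2 and at 375, 310 and 325 CPM in siCTR. The siCTR library 0412 was the highest of all 6, and the groups overlapped. The fitted log2 change was 0.05 with a 95% interval of -0.13 to 0.24 (edgeR adjusted p = 0.722), an interval that does not reach the -0.49 of KPNB1. Its sign was negative with siCTR library 0611 left out.

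CSE1L, also known as CAS, is the exportin that returns importin-α to the cytoplasm once its cargo has been delivered. Its mRNA (ENSG00000124207; chromosome 20, 49046246 to 49096960, + strand) was at 480, 502 and 481 CPM in siCRP2, against 459, 406 and 388 CPM in siCTR. The groups did not overlap, but siCTR library 0412 came close to the siCRP2 values. The log2 fold change was 0.22 (95% interval 0.04 to 0.41, edgeR adjusted p = 0.0793), and the difference did not pass the test. With the libraries paired by their code it passed (adjusted p = 0.00129), and it also passed with siCTR library 0412 left out (log2 fold change 0.29, adjusted p = 0.0216). The 3 genes of the classical import route thus had different values in the same cells: KPNB1 was lower, whereas KPNA2 and CSE1L did not pass the test.

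IPO5 and IPO7 encode importins that need no importin-α and are known for carrying ribosomal proteins and histones. IPO5 mRNA (ENSG00000065150; chromosome 13, 97953658 to 98024296, + strand) was at 317, 325 and 325 CPM in siCRP2, against 262, 225 and 234 CPM in siCTR. The siCRP2 values were nearly equal and all above the highest siCTR library. The mean was 322 ± 4.79 CPM in siCRP2 and 240 ± 19.7 CPM in siCTR (SD, n = 3 each), and the log2 fold change was 0.42 (SE 0.0855, 95% interval 0.24 to 0.60, edgeR adjusted p = 0.00143). The log2 ratio was 0.27 within code 0412, 0.53 within 0611 and 0.47 within 1311, and IPO5 was called in 13 of 13 alternative analyses.

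IPO7 mRNA (ENSG00000205339; chromosome 11, 9384652 to 9448127, + strand) was at 429, 468 and 456 CPM in siCRP2, against 420, 395 and 369 CPM in siCTR. The lowest siCRP2 and the highest siCTR library, both of code 0412, were close to each other, and the groups did not overlap. IPO7 had a log2 fold change of 0.19 (95% interval 0.01 to 0.37, edgeR adjusted p = 0.123) and did not pass the test, whereas with the libraries paired by code it did (adjusted p = 0.00716).

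TNPO1 encodes transportin 1, which imports hnRNP A1 and other RNA-binding proteins with a proline-tyrosine type of signal. Its mRNA (ENSG00000083312; chromosome 5, 72816312 to 72916733, + strand) was at 317, 318 and 338 CPM in siCRP2 and at 285, 303 and 323 CPM in siCTR. The highest siCTR library exceeded 2 of the siCRP2 libraries, although within each code the siCRP2 value was the higher one (log2 ratios 0.16, 0.07 and 0.07). For TNPO1 the log2 fold change was 0.10 (95% interval -0.08 to 0.27, edgeR adjusted p = 0.465).

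XPO1 encodes exportin 1 (CRM1), which exports proteins with a leucine-rich export signal as well as some RNAs. Its mRNA (ENSG00000082898; chromosome 2, 61476032 to 61538741, - strand) was at 383, 389 and 383 CPM in siCRP2, against 360, 348 and 339 CPM in siCTR. Each siCRP2 library lay above the highest siCTR library, by a small margin. The mean was 385 ± 3.41 CPM in siCRP2 and 349 ± 10.6 CPM in siCTR (SD, n = 3 each). The log2 fold change was 0.14 (SE 0.0803, 95% interval -0.03 to 0.31, edgeR adjusted p = 0.235), and XPO1 did not pass the test. Pairing by code gave an adjusted p of 0.0628, and none of the 13 alternatives called XPO1.

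XPOT encodes exportin-t, the export receptor of mature tRNAs. Its mRNA (ENSG00000184575; chromosome 12, 64404392 to 64451125, + strand) was at 296, 274 and 290 CPM in siCRP2, against 217, 212 and 209 CPM in siCTR. Every siCRP2 library was above every siCTR library, and the siCTR values lay close together. The mean was 287 ± 11.6 CPM in siCRP2 and 213 ± 3.90 CPM in siCTR (SD, n = 3 each), and the log2 fold change was 0.43 (SE 0.0804, 95% interval 0.26 to 0.60, edgeR adjusted p = 0.000783). The log2 ratios within codes were 0.45, 0.37 and 0.47, and XPOT was called in 13 of 13 alternative analyses.

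XPO5 encodes exportin 5, which brings microRNA precursors to the cytoplasm. Its mRNA (ENSG00000124571; chromosome 6, 43522334 to 43576038, - strand) was at 135, 152 and 159 CPM in siCRP2 and at 155, 139 and 161 CPM in siCTR. The groups overlapped, and the log2 ratio within codes went both ways (-0.20, 0.13 and -0.02). For XPO5 the log2 fold change was -0.03 (95% interval -0.22 to 0.16, edgeR adjusted p = 0.863), and its sign changed with siCRP2 library 0412 or siCTR library 1311 left out. The exons of XPO5 overlap those of POLR1C, an RNA polymerase subunit gene on the opposite strand, over 348 bases, and POLR1C had 7395 counts in all against 21815 for XPO5. The strand setting of the counting is unknown here, and the part of these shared bases in the XPO5 values was not tested.

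XPO7 encodes exportin 7, a receptor of several protein cargoes that in mice is also known for the removal of histones from maturing red cells. Its mRNA (ENSG00000130227; chromosome 8, 21919662 to 22006585, + strand) was at 104, 115 and 107 CPM in siCRP2, against 133, 117 and 122 CPM in siCTR. The groups did not overlap, but the libraries of code 0611 were almost level (log2 ratio -0.02, against -0.36 and -0.18 in the other codes). The log2 fold change was -0.19 (95% interval -0.37 to -0.01, edgeR adjusted p = 0.129), and XPO7 did not pass the test. It passed with the libraries paired by code (adjusted p = 0.0104) and with edgeR's own expression filter (log2 fold change -0.24, adjusted p = 0.0416). That filter moved the log2 fold change of every receptor down, for example XPOT from 0.428 to 0.382 and KPNB1 from -0.493 to -0.539.

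The paired values have their own background, since pairing the libraries by code raised the calls over all genes to 19.5% higher and 17.8% lower. Against these shares, 4 receptors were higher (XPOT, IPO5, CSE1L and IPO7) and 2 were lower (KPNB1 and XPO7) in the paired fit. The standard error of that fit was nearly the same for all receptors, from 0.0628 for TNPO1 to 0.0644 for XPO7. XPOT, with close ratios within codes (0.45, 0.37 and 0.47), had 0.0629. XPO5, with ratios of both signs (-0.20, 0.13 and -0.02), had 0.0632. The paired standard error thus did not follow the spread of a gene's ratios between codes. A paired call therefore does not show that the change was alike in all codes. In the unpaired fit the standard errors also lay in a narrow range, from 0.0803 for XPO1 to 0.0901 for XPO5. Its intervals and calls thus do not rest on the spread of a gene's own libraries alone. This holds for XPO1, whose libraries lay close together (SD 3.41 CPM in siCRP2 and 10.6 CPM in siCTR).

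**Figure D2:**
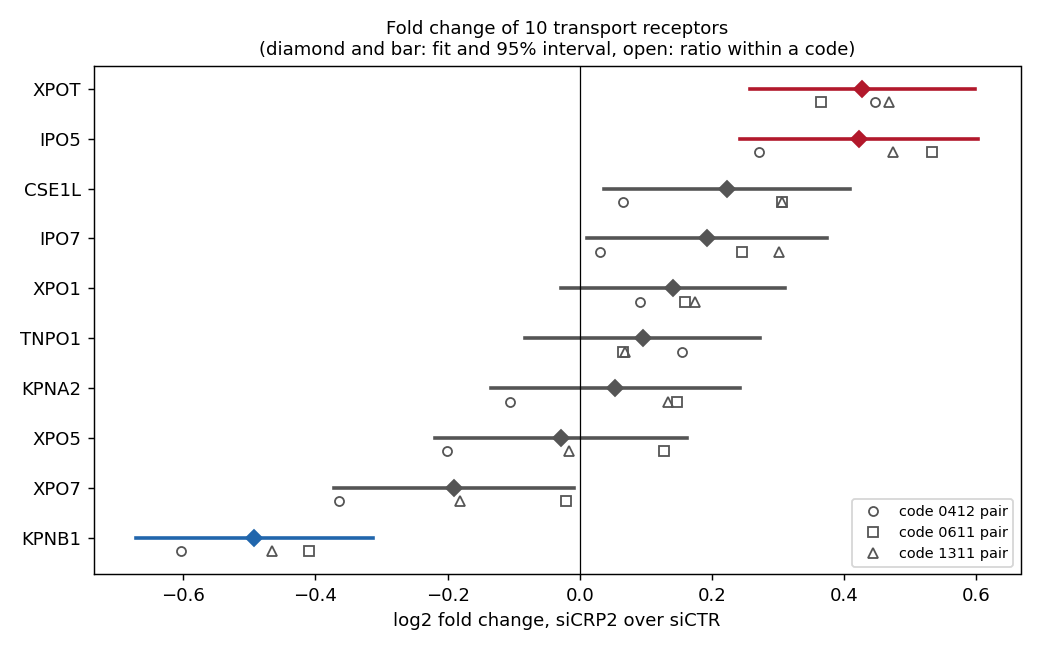
Log2 fold change of the 10 receptors, siCRP2 over siCTR (diamond), with its 95% interval (bar) and the log2 ratio of the libraries within each code (open symbols); red is called higher, blue lower and grey not called. Fold changes run from -0.49 for KPNB1 to 0.43 for XPOT, and the ratio of code 0412 is the lowest of the 3 for 8 of the 10 receptors, XPOT and TNPO1 being the exceptions.

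Summed over the 10 receptors, the libraries held 3264, 3374 and 3394 CPM in siCRP2, against 3356, 3103 and 3161 CPM in siCTR. The siCTR library 0412 lay among the siCRP2 values, so the groups overlapped and the total did not separate them. The receptors took 0.335 to 0.339% of all counts in siCRP2 and 0.307 to 0.336% in siCTR. Bulk RNA cannot tell fewer cells of a kind from less RNA in each cell, which holds for every value here.

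To compare the receptors with each other, CPM were divided by the length of the canonical transcript in kilobases (kb). In siCRP2 the levels were KPNA2 177, CSE1L 137, KPNB1 79.3, XPO1 77.2, IPO7 73.2, IPO5 53.7, XPOT 45.0, TNPO1 38.2, XPO5 27.9 and XPO7 22.3 CPM per kb. Only KPNB1 and XPO1 overlapped among neighbours in that order. In siCTR the levels were KPNA2 170, CSE1L 118, KPNB1 112, XPO1 70.0, IPO7 64.0, IPO5 40.0, TNPO1 35.8, XPOT 33.4, XPO5 28.5 and XPO7 25.5 CPM per kb. There CSE1L and KPNB1, XPO1 and IPO7, IPO5 and TNPO1, TNPO1 and XPOT, and XPO5 and XPO7 could not be ordered beyond the spread of the libraries. KPNB1 thus overlapped CSE1L in siCTR and XPO1 in siCRP2. In siCRP2 it also overlapped IPO7, which was not its neighbour. The lowest KPNB1 library was at 74.9 and the highest IPO7 library at 75.9 CPM per kb. These orders depend on the length used. With the bases of all annotated exons, a choice tried after the values were seen, the order in siCTR began with CSE1L (110.0), KPNB1 (65.6), IPO7 (54.7) and KPNA2 (45.7 CPM per kb). XPO1 came last there at 14.6 CPM per kb, its exons spanning 23843 bases against 4988 in its canonical transcript.

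**Figure D3:**
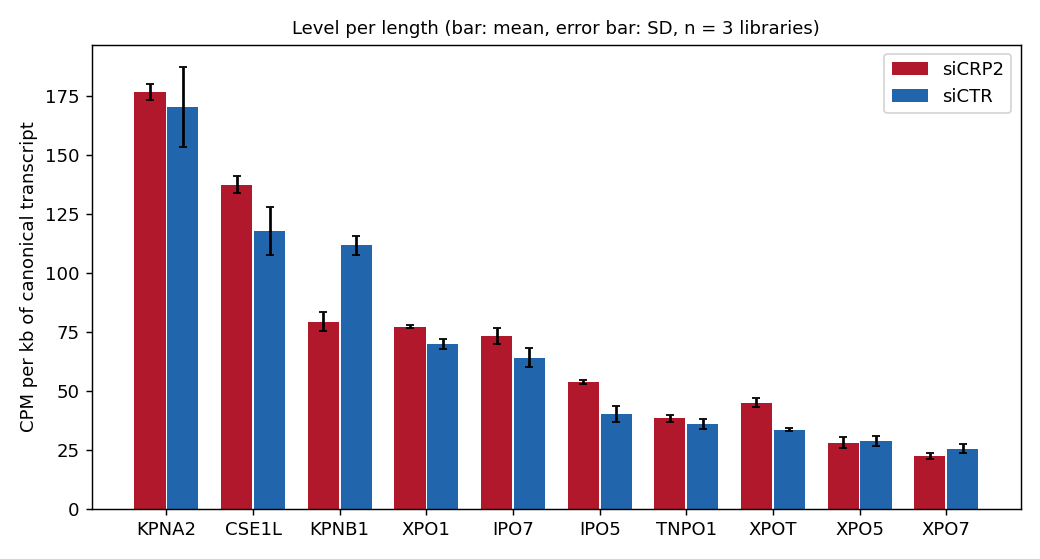
Level of each receptor mRNA per kb of canonical transcript (linear axis from 0) in siCRP2 (left bar of each pair, red) and siCTR (right bar, blue); bars are means and error bars SD over 3 libraries. With these lengths KPNA2 is the highest in both groups, at 177 and 170 CPM per kb, but not with those of all exons, and KPNB1 is the one among the 3 highest that is lower in siCRP2.

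The genes whose pattern over the 6 libraries was most like that of XPO1, among 10826 genes averaging 5 CPM or more, were FBXO7, SPG21 and CCNT1, at distances of 0.0383, 0.0488 and 0.0492 between their centred log2 CPM. FBXO7 was at 115, 116 and 114 CPM in siCRP2, against 105, 104 and 102 CPM in siCTR. The likeness describes these 6 libraries, which all the genes share.

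Copies of the receptor genes could affect the counting of their reads. Reads that match a gene and its copy equally may be counted for neither, and how many were lost was not tested. Pseudogenes named after XPOT, KPNB1, KPNA2, IPO5, IPO7 and TNPO1 held between 0 and 334 counts over all libraries, the highest being IPO5P1, against 41206 counts for IPO5 itself. For XPO1 the lncRNA USP34-DT overlaps 690 exon bases on the opposite strand and had 57 counts, against 52981 for XPO1.

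A short sequence was examined in the canonical transcripts because the heptamer GCCTCAC had been chosen in earlier work on the present counts because genes that hold it tended to be lower, and its shares are therefore no independent evidence. It was present once in 3 of the 10 receptor transcripts, XPO1, XPOT and KPNB1, and in 23.9% of the 14858 tested protein-coding genes. Its share was 46.5% among lower genes, 11.9% among higher genes and 21.9% among the others. The 3 receptors that hold it were called differently: KPNB1 was lower, XPOT was higher and XPO1 was not called. The part CCTCAC was in 9 of the 10 transcripts, KPNA2 being the exception, and in 61.5% of all. In the KPNB1 transcript the heptamer lies in coding exon 4 of 22 (chr17:47656902-47656908, + strand), in XPO1 in coding exon 10 of 25 (chr2:61496961-61496967, - strand) and in XPOT in the 3′ UTR in exon 25 of 25 (chr12:64450400-64450406, + strand). The CSRP2 transcript, against which the siRNA was directed, holds it in coding exon 4 of 6 (chr12:76860401-76860407, - strand). The sequence of siCRP2#a was not at hand, so any relation of the heptamer to the siRNA was not tested. The sites are shown with 11 bases to either side, on the sense strand of the GRCh38 transcripts, with the heptamer in capitals, so that the site of the lower, the higher and the uncalled receptor can be set beside that of the targeted gene:
KPNB1: ggcctagttctGCCTCACagtgtgtggct
XPOT: tcctcccactgGCCTCACaatgttgggat
XPO1: ctctctgaagtGCCTCACtgagattgctg
CSRP2: gagagtgttcaGCCTCACaggcctacaac

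Promoter windows of 300 bases, from 250 before to 50 after the start, were found for 8 of the 10 receptors in the RefSeq table of GRCh38.p14, XPO7 and KPNB1 being without one. The letters CCAAT were present on either strand in 5 of the 8 (XPO1, CSE1L, KPNA2, IPO5 and TNPO1) and in 36.5% of 11876 promoters of tested genes. The E-box CACGTG and the E2F form TTTCGCGC were found in IPO7 alone, against 9.72% and 0.926% of promoters, and the other E2F forms searched, TTTCCCGC and TTTGGCGC, in 0 of the 8, against 2.42% and 1.02%. The CArG box bound by SRF, with which CRP2 is known to work, had no match in these 8 windows, against 1.18% of promoters. A match of letters describes the window and not a bound site.

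The other genes of the transport pathway were read from the same fit. Of 11 further importin-β family receptors, 2 were higher, 2 were lower and 7 were not called, with a median log2 fold change of -0.06. Among all genes tested 12.5% were higher and 11.5% lower, and among those averaging 100 CPM or more 26.6% and 17.2%. TNPO3, the importer of splicing factors, was at 135, 138 and 142 CPM in siCRP2, against 114, 108 and 112 CPM in siCTR (log2 fold change 0.31, edgeR adjusted p = 0.00882), and RANBP17, a relative of XPO7, was higher by 0.58 (adjusted p = 0.00884). IPO9, an importer of histones and actin, was at 117, 121 and 120 CPM in siCRP2, against 171, 154 and 158 CPM in siCTR (log2 fold change -0.43, adjusted p = 0.000791), and IPO8, a close relative of IPO7, fell by 0.28 on the log2 scale (adjusted p = 0.0251). TNPO3 lost its call with siCRP2 library 0611 (adjusted p = 0.0649) or 1311 (0.0945) left out, and IPO8 in 4 of the 6 such analyses (adjusted p of 0.0696 to 0.0804). The heptamer is in the transcripts of IPO9 and IPO8, but not in TNPO3 or RANBP17. XPO4, IPO4 and IPO13 hold it as well and were not called (log2 fold changes 0.21, -0.72 and -0.06). IPO4 was near the floor, at 0, 0.235 and 0.410 CPM in siCRP2 and 0.513, 0.233 and 0.457 CPM in siCTR (SE 0.631).

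Among the 6 importin-α adaptors other than KPNA2, 3 were higher and 0 lower, with a median log2 fold change of 0.28. This small list stands beside 12.5% higher and 11.5% lower of all genes, and 26.6% and 17.2% of those averaging 100 CPM or more. KPNA1 was at 145, 152 and 159 CPM in siCRP2, against 103, 107 and 110 CPM in siCTR (log2 fold change 0.51, edgeR adjusted p = 0.000177). KPNA4 was higher by 0.38 on the log2 scale (adjusted p = 0.00179) and KPNA3 by 0.27 (adjusted p = 0.0244). KPNA3 lost its call without the filter on low counts (adjusted p = 0.0554) and with siCRP2 library 0611 (0.147), siCRP2 library 1311 (0.135) or siCTR library 1311 (0.0662) left out. These adaptors are carried by the same importin-β1 whose mRNA was lower, and 0 of these adaptors were called lower in any of the 13 alternatives. Of the 10 genes listed as adaptors and cofactors of receptors, 3 were higher and 0 were lower, beside the same shares of all genes. NXF1, itself the mRNA export receptor, was higher by 0.71. NMD3, the XPO1 adaptor of large ribosomal subunits, was higher by 0.36, and PHAX, the XPO1 adaptor of small nuclear RNAs, by 0.33. With siCRP2 library 1311 left out 1 of these 3 was called, since NMD3 (edgeR adjusted p = 0.0501) and PHAX (0.0504) missed the threshold. PHAX also missed it without siCRP2 library 0611 (0.0503). RANBP3L was at 0.265, 1.36 and 0.896 CPM in siCRP2, against 2.45, 18.6 and 32.3 CPM in siCTR, and did not pass (edgeR adjusted p = 0.0833). It was called lower in 5 of the alternatives, among them the fit paired by code and DESeq2, and the siCTR library 0412 stood apart from the other siCTR libraries.

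In the Ran cycle 2 of 8 genes were higher, RANBP1 by 0.48 and RANBP2 by 0.42 on the log2 scale, and 1 was lower. The shares of all genes were 12.5% higher and 11.5% lower. RAN itself was at 376, 411 and 386 CPM in siCRP2 and at 380, 348 and 338 CPM in siCTR and was not called (log2 fold change 0.14, edgeR adjusted p = 0.273). NUTF2, which encodes the factor that carries Ran-GDP back into the nucleus, was at 23.4, 33.3 and 29.3 CPM in siCRP2, against 125, 114 and 119 CPM in siCTR. This log2 fold change of -2.06 (SE 0.114, adjusted p = 6.36e-09) was the largest called change among the 76 transport genes, and the groups lay far apart. NUTF2 shares 166 exon bases with CENPT on the opposite strand, which had 6500 counts in all against 10025. Its transcript holds the heptamer in the 3′ UTR, in exon 5 of 5 (chr16:67871238-67871244, + strand), shown for comparison with the KPNB1 site. The higher genes NXF1 and NUP155 hold it in the 3′ UTR as well, in exon 21 of 21 (chr11:62792292-62792298, - strand) and exon 35 of 35 (chr5:37290403-37290409, - strand), and are shown beside it:
NUTF2: agaaagcagctGCCTCACcgcccagacat
NXF1: cagaagattgaGCCTCACtggtgccagga
NUP155: ctgcaacctctGCCTCACaggtttgaagc

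Of 31 nucleoporins, the proteins that build the pore, 14 were higher and 3 lower, with a median log2 fold change of 0.22, beside the 12.5% higher and 11.5% lower of all genes and the 26.6% and 17.2% of those averaging 100 CPM or more. NUP155 was at 164, 167 and 172 CPM in siCRP2, against 105, 93.0 and 96.7 CPM in siCTR (log2 fold change 0.77, edgeR adjusted p = 3.63e-06), and NUP43, NUP58 and NUP85 were higher by 0.63, 0.52 and 0.53. POM121C and POM121 were lower, with log2 fold changes of -0.62 and -0.40, as was SEC13 (-0.28). POM121C and POM121 are near-identical copies, and reads that match both may be counted for neither. SEC13 lost its call in 5 of the 6 analyses with a library left out (adjusted p of 0.0509 to 0.113) and in edgeR's exact test (0.0532). The count of higher nucleoporins fell to between 8 and 9 with any siCRP2 library or siCTR library 0611 left out, and was 18 without siCTR library 0412 and 20 with the libraries paired by code. The count over all genes moved too. It was 2987 in the unpaired fit of all libraries and 1930 to 2355 with any siCRP2 library or siCTR library 0611 left out. Without siCTR library 0412 it was 3128, and with the libraries paired by code 4643. Over all 76 transport genes, the receptors included, the heptamer was in 6 of 7 lower, 5 of 26 higher and 12 of 43 uncalled genes. Among all tested protein-coding genes these shares were 46.5%, 11.9% and 21.9%. Since the heptamer was chosen because its holders tended to be lower in these counts, this split is no independent evidence. The lower genes POM121 and POM121C also share a site with identical bases to either side.

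**Figure D4:**
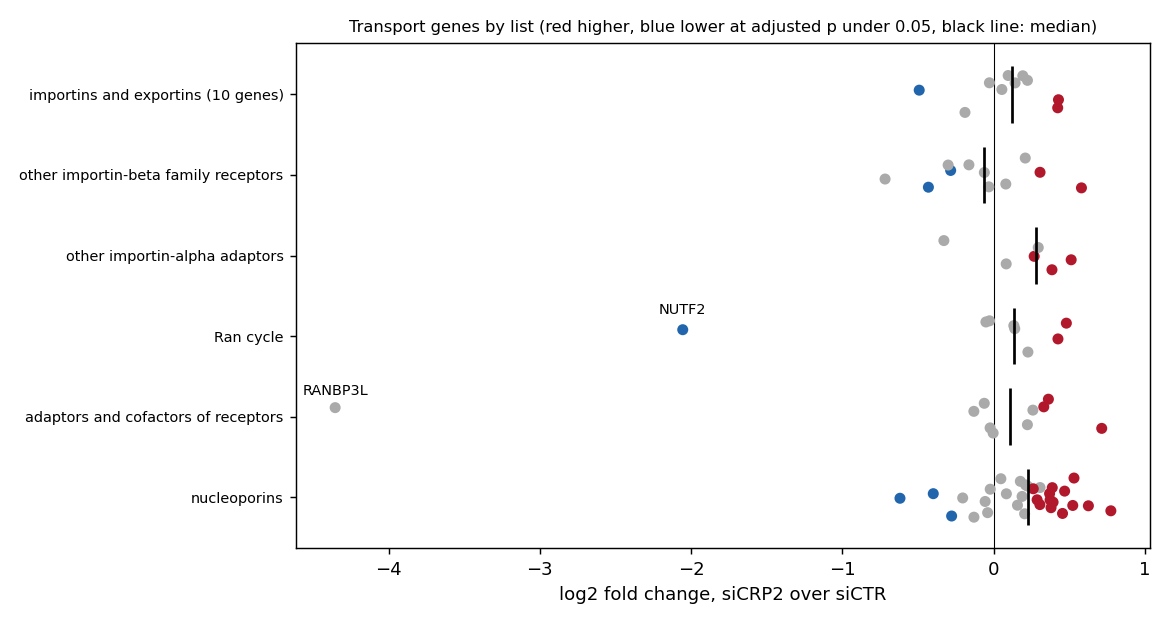
Log2 fold change, siCRP2 over siCTR, of each transport gene, with the 10 receptors in the top row; red points are called higher, blue lower and grey not called, and black lines mark list medians. NUTF2 at -2.06 lies far below the 10 receptors, which run from -0.49 to 0.43, and RANBP3L at -4.35 is not called.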

How the data were processed

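The raw counts were deposited by the authors, who aligned paired-end reads to GRCh38 with STAR and took its counts per gene; the sources used here do not give annotation, strand setting or aligner version. The labels name a standard and the study's methods a stranded mRNA library kit. Counts were read as deposited, and 23806 of 58395 genes were tested, those counted in 2 or more of 3 libraries in either group. Symbols came from GENCODE 44, which matched 23589 tested genes. edgeR 4.0.16 in R 4.3.3 fitted the groups with TMM scaling and the robust quasi-likelihood test, and p-values were adjusted over all genes by Benjamini-Hochberg. The standard error is the log2 fold change over the root of its F statistic. Fits were tested on simulated data. Columns carry a code and no replicate number of the labels; a library is named by its code. Deviations from the group mean correlated within all 3 codes (0.723, 0.459 and 0.744) and from -0.674 to 0.114 between codes (10827 genes averaging 5 CPM or more), so the code was taken to pair libraries, as an alternative. The deviations of a gene sum to 0 in each group, so the values between codes are not separate from those within codes. Other alternatives were DESeq2 1.42.0, edgeR's exact test, other scalings and filters, and each library left out. The genes named were the 10 receptors, CSRP2, the markers and the 3 genes nearest to XPO1. Of each other list, up to 4 called genes with the smallest p were named. RAN, RANBP3L, POM121, POM121C and SEC13 were added after their values were seen. XPO4, IPO4 and IPO13 were added as uncalled holders of the heptamer. Receptors, lists and the heptamer were chosen with earlier results of these data known.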

Additional observations from a re-analysis of the deposited data

How the results depend on the processing

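XPOT, IPO5 and KPNB1 kept their direction and their call in 13 of 13 alternatives, and XPO1 and TNPO1 kept theirs without a call. With the replicate block by column code (paired libraries), 4643 genes were higher and 4229 lower, against 2987 and 2735, with 4 receptors higher and 2 lower; it changed no call of the receptors other than CSE1L, IPO7 and XPO7. The edgeR expression filter gave 2 lower receptors, beside 2992 lower genes of the 14742 it kept. Leaving out 1 library gave 1930 to 3128 higher genes, the lowest without siCRP2 library 1311, 2048 to 2887 lower genes, and 2 to 3 higher receptors. Over these analyses the log2 fold change of XPO5 ran from -0.103 to 0.0269 and that of KPNA2 from -0.00182 to 0.137, both without a call; the cause was not tested. Beyond the receptors, the expression filter and the block each gave 4 lower importin-β family receptors in place of 2. In the list of adaptors and cofactors, the block gave 5 higher genes in place of 3. Without siCRP2 library 1311, the deepest of the 6, the higher genes of that list numbered 1. Each receptor had 1960 counts or more in every library.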
